A study of Homo sapiens with 12 samples.

Results

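The genes described here are the replication-dependent histone genes, the 5 gene families that supply the H1, H2A, H2B, H3 and H4 proteins laid down on newly made DNA. The family was selected on the rises of histone genes seen earlier in UM-SCC-47 cells treated with JQ1. Members were then taken by symbol, apart from 2 H4 genes taken by older identifiers. Other histone genes under older identifiers were not searched for. Of the 20738 genes in the table, 35 were members. Of these, 33 carried a current symbol of the H1-1 to H1-6, H2AC, H2BC, H3C or H4C series, and 2 were H4 genes listed under the older identifiers ENSG00000182217 and ENSG00000183941. H1 had 6 members, H2A 8, H2B 10, H3 5 and H4 6. The annotation holds 64 genes of these names, and the 31 without a row under their current identifier were not analysed here.

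RNA was sequenced from UM-SCC-47 and UPCI-SCC-090, established cell lines from human papillomavirus-positive head and neck squamous cell carcinomas. Each line was grown for 72 h either with 500 nM JQ1, a small molecule that displaces bromodomain proteins from acetylated histones, or with the solvent alone at 0.1% DMSO. The 4 groups, called UM-SCC-47 DMSO, UM-SCC-47 JQ1, UPCI-SCC-090 DMSO and UPCI-SCC-090 JQ1, had 3 libraries each. Each line comes from 1 tumour, so the lines are not replicates of each other, and the DMSO libraries of a line are the control of its JQ1 libraries. The study's methods describe stranded libraries from total RNA after removal of ribosomal RNA, in a passage on its patient cohort. Counts per gene do not separate transcripts with a poly(A) tail from those without.

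Replication-dependent histone genes are mostly intronless and lie in clusters on chromosomes 6 and 1. Their messenger RNAs are the main ones in animal cells that normally end without a poly(A) tail: the end is a short stem-loop, bound by the protein SLBP and cut by a complex that contains the U7 small nuclear RNA. Transcription of the clusters is tied to S phase through the coactivator NPAT, and the transcripts are degraded when DNA replication stops. Several of the genes can also yield longer, polyadenylated transcripts that read past the stem-loop, which have been described in cells that have left the cell cycle.

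The stem-loop that marks the family was found in all 33 annotated members. It was searched for in the annotated transcripts, and in 32 of the 33 it lay within the last 30 bases of some transcript. The other member was H2BC21, whose only annotated transcript, of 2224 bases, runs on for 1729 bases after the stem-loop. Longer transcripts of other members also held it, as all 3 of H4C8 did, the longest of 2163 bases. Of 64476 annotated genes, 77 (0.119%) held the stem-loop anywhere and 64 (0.0993%) held it in the last 30 bases, 60 of them genes of histone names. The search pattern fixed most letters of the stem-loop, so likeness among sites is largely set by the search. Sites of members that behaved differently are printed below, each read 5′ to 3′ in the annotated transcript. Stem, loop and stem are in capitals and the flanks in lower case.
H4C8: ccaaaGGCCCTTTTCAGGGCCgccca
H2BC21: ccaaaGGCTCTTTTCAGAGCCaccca
H2BC4: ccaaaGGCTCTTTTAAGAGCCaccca
H2AC11: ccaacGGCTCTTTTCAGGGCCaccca
H2AC20: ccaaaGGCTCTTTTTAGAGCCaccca
H1-2: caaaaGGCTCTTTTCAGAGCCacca

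The capitals of H2BC21 and H1-2 are the commonest form, held by 20 members. The form of H2BC4 was held by 7 members, and that of H4C8 by 4, which are all 4 annotated H4 genes. H2AC11 and H2AC20 each had a form of their own. H2AC11 was among the members with the largest rises and H2AC20 was below its DMSO mean in both lines, so their sites are set side by side here; these letters were read from the annotation, not from the libraries.

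Histone genes often sit head to head, an H2A gene and an H2B gene sharing 1 short stretch of promoter. Among the members, 6 such pairs had starts 215 to 248 bases apart in the annotation. The stretches between the starts of 3 pairs are printed: those of the pairs with the largest gap in log2 fold change in each line, H2BC21 with H2AC20 and H2BC13 with H2AC13, and that of H2BC4 with H2AC6, whose gap turned in sign between the lines (RefSeq, GRCh38.p14, plus strand, with the first gene of each pair read leftwards and the second rightwards). Capitals mark TATAAA, the letters CCAAT and the octamer ATTTGCAT on either strand, and no matches overlap.
H2BC21 and H2AC20, chr1:149886683-149886917, 235 bases: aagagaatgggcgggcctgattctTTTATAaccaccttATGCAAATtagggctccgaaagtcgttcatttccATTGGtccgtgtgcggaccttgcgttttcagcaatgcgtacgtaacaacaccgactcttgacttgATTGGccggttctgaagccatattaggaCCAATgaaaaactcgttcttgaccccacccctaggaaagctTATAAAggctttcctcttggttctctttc
H2BC13 and H2AC13, chr6:27807930-27808172, 243 bases: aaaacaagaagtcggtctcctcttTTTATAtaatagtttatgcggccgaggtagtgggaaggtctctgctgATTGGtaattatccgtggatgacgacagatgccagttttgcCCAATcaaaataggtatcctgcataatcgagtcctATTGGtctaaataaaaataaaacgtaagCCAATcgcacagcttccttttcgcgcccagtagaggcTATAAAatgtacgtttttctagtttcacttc
H2BC4 and H2AC6, chr6:26123927-26124171, 245 bases: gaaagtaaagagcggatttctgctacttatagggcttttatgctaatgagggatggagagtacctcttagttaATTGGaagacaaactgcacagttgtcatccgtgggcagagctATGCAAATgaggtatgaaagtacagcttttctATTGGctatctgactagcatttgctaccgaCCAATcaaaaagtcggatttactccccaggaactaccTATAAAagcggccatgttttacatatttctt

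TATAAA is the core of the TATA box, CCAAT is bound by NF-Y, and ATTTGCAT is the octamer bound by OCT1. The stretch between H2BC21 and H2AC20 held TATAAA 2 times, 25 bases from the start of H2BC21 and 24 bases from the start of H2AC20, with CCAAT 3 times and the octamer 1 time. Between H2BC13 and H2AC13, TATAAA occurred 2 times, 25 and 26 bases from the respective starts, CCAAT 4 times and the octamer not at all. The stretch between H2BC4 and H2AC6 had its single TATAAA 26 bases from the start of H2AC6 and none near the start of H2BC4. Of the 31 members with a RefSeq promoter entry (250 bases before the start to 50 after it, both strands), 22 (71%) held TATAAA, against 14% of all 27305 genes with such an entry. CCAAT was present in 28 of the 31 (90.3%), against 39.7% of all genes, and the octamer in 13 (41.9%), against 2.19%. The 31 are not separate stretches, since the entries of head-to-head partners overlap and a site can count for both genes. The octamer of H3C4 lay only in an entry that is the same as that of H2AC7. The MYC-type E-box CACGTG was in none of the 31 and in 8.77% of all promoters. The promoter of H4C8, the member with the largest rise in both lines, held none of the 4 sequences, which says only that these letters are not in that window.

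Library totals ran from 20349142 to 30788588 estimated counts. Levels are given as CPM, counts relative to the TMM-scaled library size, in which 3 counts were worth about 0.1 CPM, and the scaling factors were 1.03 to 1.21 in the DMSO libraries and 0.82 to 0.97 in the JQ1 libraries. Libraries differed in how their counts moved with the GC content of genes: the slopes, in log2 CPM per 10 percentage points of GC, were −0.532 in UM-SCC-47 JQ1 replicate 3, 0.702 in UPCI-SCC-090 DMSO replicate 2, 0.454 in UPCI-SCC-090 JQ1 replicate 2 and −0.784 in UPCI-SCC-090 JQ1 replicate 3, and between −0.276 and 0.232 in the others. The median GC content of the members tested was 53.9% in UM-SCC-47 (21 of 23 with a value) and 55% in UPCI-SCC-090 (24 of 26), against 48.5% and 48.3% over all genes. The summed level of 9 squamous epithelium markers ran from 2739 to 4167 CPM in UM-SCC-47 and in UPCI-SCC-090 from 6320 to 21490 CPM, with the JQ1 libraries of each line above its DMSO libraries. The single markers did not move together: in UM-SCC-47 KRT17 went from 360 to 1828 CPM and KRT14 was also called higher, while KRT5, TP63, PKP1 and KRT6A were called lower, and in UPCI-SCC-090 KRT6A, SFN and CDH1 were called higher. In UPCI-SCC-090 DMSO libraries KRT14 and KRT5 were low, at 1.24 ± 0.594 and 7.99 ± 2.08 CPM, and KRT6A was at 4556 ± 1116 CPM. The 5 fibroblast markers summed to at most 30.6 CPM, 5 leukocyte markers to at most 41.3 CPM and 3 endothelium markers to at most 8.09 CPM in every library, with COL1A2 and LUM at 0 in all JQ1 libraries of both lines, CD3E at 0 in UM-SCC-47 and CDH5 at 0 in UPCI-SCC-090 JQ1; the part of these markers and of the GC slopes in the results was not tested beyond the fits named below. The median gene changed by −0.03 (log2) with JQ1 in UM-SCC-47 and by −0.14 in UPCI-SCC-090. With RLE scaling these medians were 0.12 and 0.14, and with library size alone −0.28 and −0.38. Higher calls made up 38.7% of all calls in UM-SCC-47 (48% with RLE, 24.1% with library size alone, 50.6% with DESeq2, 51.3% with a GC correction) and 27.4% in UPCI-SCC-090 (42.3%, 17.1%, 43.2% and 51.9%).

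Histone transcripts made up a larger share of the libraries of both lines after JQ1. Summed over the 35 members, the level in UM-SCC-47 was 192, 215 and 213 CPM in the DMSO libraries and 1511, 1857 and 1354 CPM in the JQ1 libraries (values in triplets are for replicates 1, 2 and 3, in that order). In UPCI-SCC-090 it was 267, 299.8 and 306 CPM with DMSO and 2470, 2551 and 2142 CPM with JQ1. The groups did not overlap in either line, and the ratio of the means was 7.62 in UM-SCC-47 and 8.21 in UPCI-SCC-090. As a share of all counts the family went from 0.0215-0.024% to 0.13-0.162% in UM-SCC-47 and from 0.031-0.0323% to 0.194-0.221% in UPCI-SCC-090. In bulk libraries, a change in the number of cells that express a gene and a change in its RNA per cell cannot be told apart.

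Each of the 5 classes was higher after JQ1 in every library of both lines. H4, which pairs with H3 in the core of the nucleosome, had the largest ratio: its sum went from 19.3 ± 1.06 CPM (SD, n = 3) to 239 ± 29.0 CPM in UM-SCC-47, 12.4-fold, and in UPCI-SCC-090 from 63.8 ± 6.46 to 897 ± 189 CPM, 14.1-fold. H2A went from 58.7 ± 3.73 to 499.7 ± 107 CPM in UM-SCC-47 (8.52-fold) and in UPCI-SCC-090 from 51.9 ± 6.53 to 593 ± 44 CPM (11.4-fold). The sum of the linker histone H1, which binds the DNA between nucleosomes, was 30.3 ± 0.689 and 257 ± 88.3 CPM in UM-SCC-47 (8.49-fold), and 25.5 ± 6.79 and 201 ± 32.5 CPM in UPCI-SCC-090 (7.89-fold). H2B, the partner of H2A, took the largest share of the family in DMSO libraries and had a smaller ratio, from 94.4 ± 7.71 to 560.5 ± 31.2 CPM (5.94-fold) and from 142 ± 12.2 to 646 ± 39.3 CPM (4.54-fold). H3 was low throughout, at 3.89 ± 0.551 and 17.8 ± 1.95 CPM in UM-SCC-47 (4.56-fold) and 7.39 ± 1.72 and 49.7 ± 11 CPM in UPCI-SCC-090 (6.72-fold). Because the classes did not move by the same factor, H2B went from 45.7% to 36% of the family in UM-SCC-47 and from 48.9% to 27.2% in UPCI-SCC-090, while H4 went from 9.34% to 15.2% and from 21.9% to 37.3%. The ratio and share of H4 rest largely on the 2 genes under older identifiers, whose division of reads is not known. Without them, mean H4 levels in UPCI-SCC-090 were 9.62 CPM (DMSO) and 67.5 CPM (JQ1), a smaller ratio than that of H2A or H1. The matching UM-SCC-47 means were 4.96 and 50.4 CPM, still the largest ratio of that line. The H3 sum covers few of the H3 genes of the annotation, and sums are over the members in the table, not over whole classes.

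**Figure D1:**
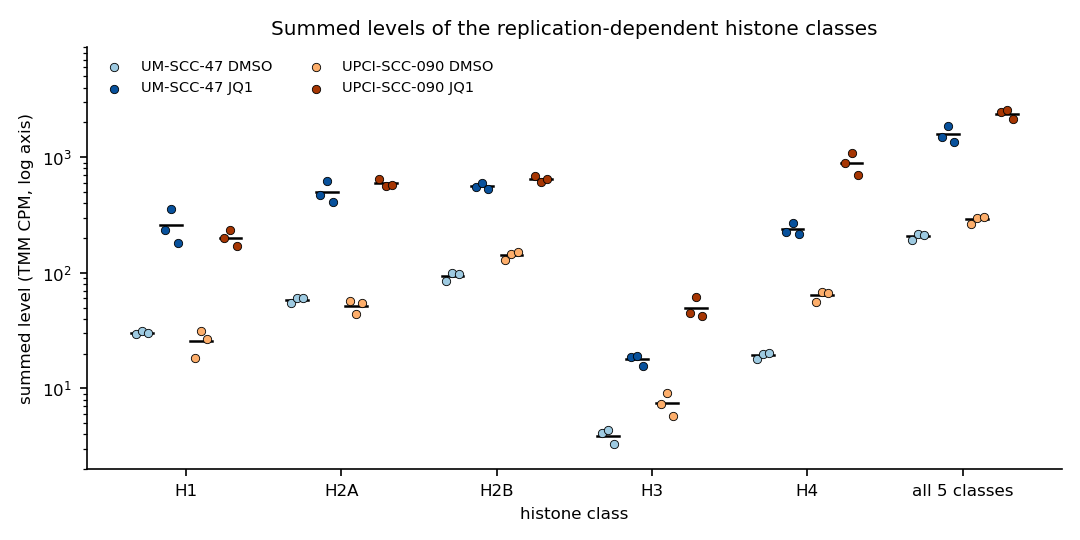
Summed level of each histone class in the 12 libraries, in TMM-scaled CPM on a log axis; points are libraries and horizontal lines are group means. In each class and line the 3 JQ1 libraries lie above the 3 DMSO libraries, from 4.54-fold between the means for H2B in UPCI-SCC-090 to 14.1-fold for H4 in the same line. Most of the H4 sum came from the 2 genes under older identifiers.

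In UM-SCC-47, 23 of the 35 members had enough counts to be tested. Their log2 fold changes ran from −0.90 to 4.48 with a median of 2.60, and 20 were called higher and 1 lower at an adjusted p of 0.05 (edgeR), where 16.1% of all 13440 genes tested were called higher and 25.5% lower. The groups did not overlap, with JQ1 higher, for 21 members (22.8% of all genes), and with JQ1 lower for 1 (32.5% of all genes). Because the family was selected on this contrast, these counts describe the choice, and no test is drawn from them.

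In UPCI-SCC-090, 26 members could be tested and 20 rose, against 7.67% of the 13150 genes tested. The family was noticed in the other line, but results of UPCI-SCC-090 were also known when it was chosen, so these calls and their adjusted p are not independent of the choice. None was called lower by edgeR, against 20.4% of all genes, and 1, H2BC13, was lower at an unadjusted p under 0.05. DESeq2, run as an alternative, also called 20 higher and 0 lower. The 6 that did not pass were H1-5, H2AC20, H2BC13, H2BC26, H4C11 and H4C16. Groups did not overlap for 23 members with JQ1 higher (16.1% of all genes) and for 1, H2BC13, with JQ1 lower (24.4% of all genes). The median log2 fold change of the 26 was 2.59, with a range from −1.42 to 4.65. By class, 1 of 2 tested H1 genes, 5 of 6 H2A genes, 7 of 9 H2B genes, 3 of 3 H3 genes and 4 of 6 H4 genes rose. With the GC trend of each library removed, 21 members were called in UPCI-SCC-090, and without the libraries of the steepest GC slopes 18 were called.

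**Figure D2:**
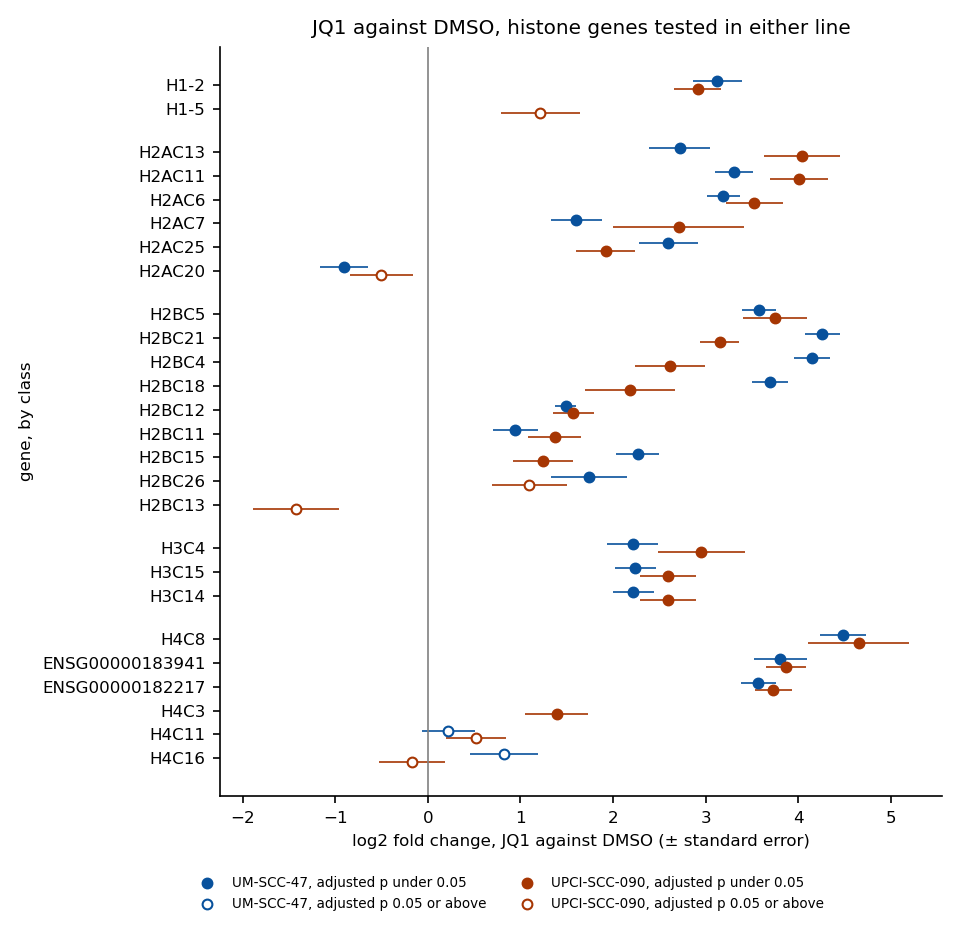
Log2 fold change with JQ1 of each tested member in UM-SCC-47 and UPCI-SCC-090 with its standard error, from edgeR on the 6 libraries of a line; filled points had an adjusted p under 0.05. Most members lie between 1 and 5 in both lines. H2AC20 lies below 0 in both, though above 0 in UPCI-SCC-090 with a GC correction (0.17), and H2BC13, tested in UPCI-SCC-090 only, lies at −1.42.

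Among the H4 genes, H4C8 (chromosome 6, 26277837 to 26285866, minus strand, GRCh37) had the largest rise of all members in both lines. Its level in UM-SCC-47 was 1.75, 2.03 and 2.36 CPM with DMSO and 47.6, 36.2 and 54.8 CPM with JQ1. In UPCI-SCC-090 it was 2.96, 1.79 and 1.52 CPM with DMSO and 68.3, 32.8 and 66.2 CPM with JQ1. JQ1 libraries of both lines were far above all DMSO libraries, with replicate 2 the lowest JQ1 library in each. The log2 fold change was 4.48 ± 0.24 (SE, n = 3) in UM-SCC-47 and 4.65 ± 0.55 in UPCI-SCC-090 (adjusted p = 0.0039). Only 1.08% of the 31-base words of H4C8 occur in another annotated gene, so its counts are little exposed to the sharing of reads between copies.

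The H4 genes listed under older identifiers held most of the H4 sum, 72.0% to 85.0% of it across UM-SCC-47 libraries and 84.4% to 95.8% across UPCI-SCC-090 libraries. ENSG00000183941 was at 5.87, 8.72 and 9.07 CPM in UM-SCC-47 DMSO and at 107, 144 and 83.7 CPM in UM-SCC-47 JQ1. With DMSO in UPCI-SCC-090 it was at 26.3, 34.7 and 34.3 CPM, and with JQ1 at 477, 655 and 386 CPM. JQ1 libraries of both lines lay far above their DMSO libraries, with log2 fold changes of 3.81 ± 0.29 in UM-SCC-47 and 3.87 ± 0.22 in UPCI-SCC-090 (adjusted p = 0.0017). ENSG00000182217 went from 6.43 ± 0.978 to 77.0 ± 9.40 CPM in UM-SCC-47 and in UPCI-SCC-090 from 22.4 ± 0.674 to 324 ± 72.0 CPM (log2 fold changes 3.57 ± 0.19 and 3.73 ± 0.20, adjusted p = 0.0015 in UPCI-SCC-090). These identifiers are not in the annotation used, so no position, sequence or share of words is given for them, and how their reads were divided is not known. The other 4 H4 genes together went from 4.96 ± 0.487 to 50.4 ± 8.99 CPM in UM-SCC-47 and in UPCI-SCC-090 from 9.62 ± 1.25 to 67.5 ± 19.3 CPM.

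Of those 4, H4C8 carried nearly all of the difference. H4C11, which shares 92.5% of its 31-base words with H4C12, was at 1.31, 1.92 and 1.40 CPM with DMSO and 1.64, 2.42 and 1.42 CPM with JQ1 in UM-SCC-47, so the groups overlapped. In UPCI-SCC-090 its values were 4.16, 7.48 and 7.85 CPM with DMSO and 9.93, 10.7 and 9.28 CPM with JQ1 (0.52 ± 0.32, adjusted p = 0.29), and with the GC trend removed the change was 1.44 with an adjusted p of 0.0062. H4C16, the single member on chromosome 12, was at 0.517 to 0.732 CPM with DMSO and 0.384 to 0.871 CPM with JQ1 in UPCI-SCC-090 (−0.17 ± 0.35, adjusted p = 0.77). H4C3 rose from 0.414 ± 0.0938 to 1.16 ± 0.144 CPM in UPCI-SCC-090 (1.39 ± 0.34, adjusted p = 0.025). This rise rested on 9 to 34 counts per library and did not pass in 5 of the 6 fits that left out 1 library: the changes were 1.29, 1.34 and 1.58 without DMSO replicates 1, 2 and 3, and 1.5 and 1.36 without JQ1 replicates 1 and 3. H4C3 and H1-6 lie inside the annotated span of H2BC4, H4C3 on the opposite strand.

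H2B genes had log2 fold changes from 0.94 to 4.26 in UM-SCC-47 and from −1.42 to 3.75 in UPCI-SCC-090. H2BC21 (chromosome 1, 149856009 to 149858232, minus strand, GRCh37), the member whose only annotated transcript reads past the stem-loop, was at 7.94, 9.29 and 9.51 CPM with DMSO and 166, 205 and 146 CPM with JQ1 in UM-SCC-47. Its UPCI-SCC-090 values were 14.5, 15.9 and 14.9 CPM with DMSO and 138, 182 and 119 CPM with JQ1. The lowest JQ1 library of each line was several times the highest DMSO library. Log2 fold changes were 4.26 ± 0.19 in UM-SCC-47 and 3.15 ± 0.21 in UPCI-SCC-090 (adjusted p = 0.003).

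H2BC4 (chromosome 6, 26086545 to 26124154, minus strand, GRCh37) had different levels in the lines after JQ1. In UM-SCC-47 it was at 1.95, 2.56 and 2.49 CPM with DMSO and at 41.9, 37.9 and 45.2 CPM with JQ1. In UPCI-SCC-090 the values were 0.931, 0.919 and 1.26 CPM with DMSO and 6.62, 5.33 and 8.21 CPM with JQ1. The groups of each line did not overlap, and the JQ1 libraries of UPCI-SCC-090 stayed well under those of UM-SCC-47. The log2 fold change was 4.15 ± 0.20 in UM-SCC-47 and 2.62 ± 0.38 in UPCI-SCC-090 (adjusted p = 0.0051). H2BC5 (chromosome 6, 26158350 to 26171577), a nearby gene, had close values in both lines: 9.38, 13.1 and 12.5 CPM with DMSO and 141, 127 and 152 CPM with JQ1 in UM-SCC-47, 10.3, 7.70 and 8.59 CPM with DMSO and 147, 95.5 and 138 CPM with JQ1 in UPCI-SCC-090. Its log2 fold changes were 3.57 ± 0.18 and 3.75 ± 0.35 (adjusted p = 0.0037 in UPCI-SCC-090), and the difference between the lines, 0.25 ± 0.32, was smaller than its SE.

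H2BC12 (chromosome 6, 27114140 to 27114634), the H2B gene with the most counts, had one of the smaller ratios. It was at 58.3, 65.7 and 65.0 CPM with DMSO and 180.5, 190.4 and 165 CPM with JQ1 in UM-SCC-47. UPCI-SCC-090 values were 93.2, 112 and 115 CPM with DMSO and 364, 294 and 356 CPM with JQ1. The log2 fold change was 1.49 ± 0.12 in UM-SCC-47 and 1.57 ± 0.23 in UPCI-SCC-090 (adjusted p = 0.005), and H2BC12 went from 66.9% to 31.8% of the H2B sum in UM-SCC-47 and from 75% to 52.2% in UPCI-SCC-090. It shares 71% of its 31-base words with other genes. Low H2B genes also rose in UPCI-SCC-090 but on fewer counts. H2BC18 went from 0.779 ± 0.309 to 3.78 ± 1.14 CPM (2.19 ± 0.48, adjusted p = 0.018), and the call was lost without DMSO replicate 2 (2.06), DMSO replicate 3 (1.98) or JQ1 replicate 1 (2.16). H2BC11 went from 7.09 ± 1.41 to 19.9 ± 4.17 CPM (1.37 ± 0.28, adjusted p = 0.015) and lost its call without DMSO replicate 2 (1.31) or JQ1 replicate 1 (1.47). H2BC15, from 1.49 ± 0.384 to 3.84 ± 0.490 CPM (1.25 ± 0.33, adjusted p = 0.032), lost its call in 5 of the 6 fits without 1 library (1.36, 1.04 and 1.38 without DMSO replicates 1, 2 and 3, 1.29 and 1.42 without JQ1 replicates 1 and 3), with the GC trend removed (1.45) and with library size alone (1.02).

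In UM-SCC-47 these low H2B genes were at 0.794 ± 0.0976 and 10.5 ± 0.478 CPM for H2BC18 (3.70 ± 0.19), 6.07 ± 0.267 and 11.8 ± 3.42 CPM for H2BC11 (0.94 ± 0.24) and 0.907 ± 0.197 and 4.40 ± 0.489 CPM for H2BC15 (2.27 ± 0.23). H2BC26, on the second cluster of chromosome 1, was at 0.390 ± 0.101 and 1.32 ± 0.532 CPM in UM-SCC-47 (1.74 ± 0.41) and at 0.299 ± 0.0701 and 0.719 ± 0.342 CPM in UPCI-SCC-090 (1.09 ± 0.41, adjusted p = 0.092). In UM-SCC-47 the call of H2BC11 was lost without DMSO replicate 1 (0.91), 2 (0.96) or 3 (0.97), and that of H2BC26 without DMSO replicate 1 (1.55), DMSO replicate 3 (1.75) or JQ1 replicate 1 (1.60). H2BC13 was the only tested member whose 3 JQ1 libraries of UPCI-SCC-090 all lay below its 3 DMSO libraries, at 0.532, 0.875 and 0.581 CPM with DMSO and 0.182, 0.194 and 0.384 CPM with JQ1. Its log2 fold change of −1.42 ± 0.47 did not pass (adjusted p = 0.063); with library size alone it was −1.66 (adjusted p = 0.031) and in the fit over all 12 libraries −1.35 (adjusted p = 0.048).

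H2A genes divided into 5 that rose in UPCI-SCC-090 and H2AC20. H2AC6 (chromosome 6, 26124373 to 26139344, plus strand, GRCh37) made up 59% to 75% of the H2A sum, and 1.8% of its 31-base words were shared. In UM-SCC-47 it was at 38.2, 40.4 and 43.8 CPM with DMSO and 349, 460.1 and 318 CPM with JQ1. In UPCI-SCC-090 it was at 35.3, 22.7 and 35 CPM with DMSO and 441, 333 and 376 CPM with JQ1. Replicate 2 was the lowest library of both UPCI-SCC-090 groups, and the groups were far apart in both lines. Log2 fold changes were 3.19 ± 0.18 in UM-SCC-47 and 3.52 ± 0.31 in UPCI-SCC-090 (adjusted p = 0.0037).

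The other H2A genes that rose in UPCI-SCC-090 were H2AC11, H2AC13, H2AC25 and H2AC7. H2AC11 went from 5.66 ± 0.246 to 56.6 ± 12 CPM in UM-SCC-47 (3.31 ± 0.20) and in UPCI-SCC-090 from 8.65 ± 2.39 to 151 ± 8.54 CPM (4.0 ± 0.31, adjusted p = 0.0037). H2AC13 was at 0.702, 1.47 and 1.09 CPM with DMSO and 6.84, 8.94 and 5.92 CPM with JQ1 in UM-SCC-47, and at 1.43, 1.36 and 1.03 CPM with DMSO and 23.8, 16.8 and 26.1 CPM with JQ1 in UPCI-SCC-090. Its log2 fold changes were 2.72 ± 0.33 and 4.04 ± 0.41 (adjusted p = 0.0037 in UPCI-SCC-090), and 64.9% of its 31-base words were shared with H2AC14. H2AC25, on the second cluster of chromosome 1, went from 9.43 ± 2.00 to 57.7 ± 19.9 CPM (2.60 ± 0.32) and from 7.77 ± 1.85 to 31.9 ± 9.82 CPM (1.92 ± 0.32, adjusted p = 0.007). H2AC7, at 0.532, 0.0438 and 0.517 CPM with DMSO and 2.25, 3.92 and 2.07 CPM with JQ1 in UPCI-SCC-090, rose by 2.71 ± 0.70 (adjusted p = 0.031). Its DMSO replicate 2 held 1 count, and the call was lost without DMSO replicate 1 (3.10), DMSO replicate 3 (3.0) or JQ1 replicate 1 (2.97). H2AC7 shares 84.6% of its 31-base words with another annotated gene, ENSG00000282988.

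H2AC20 (chromosome 1, 149858468 to 149858961, plus strand, GRCh37) stood apart from the other H2A genes. It was at 1.24, 0.978 and 0.873 CPM with DMSO and 0.595, 0.618 and 0.455 CPM with JQ1 in UM-SCC-47, so that all JQ1 libraries were lower. In UPCI-SCC-090 the values were 2.03, 3.85 and 2.39 CPM with DMSO and 1.96, 2.81 and 1.57 CPM with JQ1, and the groups overlapped. The log2 fold change was −0.90 ± 0.26 in UM-SCC-47, a call that was lost in 8 of 10 alternatives and in 5 of the 6 fits without 1 library (−0.74, −0.94 and −1.0 without DMSO replicates 1, 2 and 3, −0.95 and −0.67 without JQ1 replicates 1 and 3), all with a negative change. In UPCI-SCC-090 it was −0.50 ± 0.34 (adjusted p = 0.33), and it turned to 0.17 with the GC trend removed. H2AC20 shares 39.2% of its 31-base words with other genes.

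All 3 H3 genes that could be tested rose. H3C4 (chromosome 6, 26197012 to 26197514) was at 2.36, 2.29 and 1.57 CPM with DMSO and 8.96, 12.4 and 7.84 CPM with JQ1 in UM-SCC-47. In UPCI-SCC-090 it was at 0.931, 2.10 and 0.775 CPM with DMSO and 9.34, 14.8 and 7.90 CPM with JQ1. Its log2 fold changes were 2.21 ± 0.27 and 2.95 ± 0.47 (adjusted p = 0.0063 in UPCI-SCC-090). H3C4 shares 96.6% of its 31-base words with another annotated gene, ENSG00000282988, so how its reads were divided is not known. H3C14 and H3C15, which lie on the first cluster of chromosome 1, share 99.2% to 100% of their 31-base words and had the same values in all but 1 group. H3C14 went from 0.818 ± 0.0741 to 3.85 ± 0.716 CPM in UM-SCC-47 (2.22 ± 0.22) and in UPCI-SCC-090 from 2.92 ± 0.515 to 19.2 ± 3.63 CPM (2.59 ± 0.30, adjusted p = 0.0038). They are best read as 1 measurement. With these 2 genes summed to 1, and the 2 older H4 identifiers summed to 1, 18 members rose in UPCI-SCC-090.

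One gene carried the H1 class. H1-2 (chromosome 6, 26055968 to 26056698, minus strand, GRCh37) made up 96% to 99.7% of the H1 sum on average, and only 0.713% of its 31-base words were shared. It was at 29.0, 29.3 and 28.9 CPM with DMSO and 236, 353 and 179.9 CPM with JQ1 in UM-SCC-47. In UPCI-SCC-090 it was at 17.1, 30.7 and 25.8 CPM with DMSO and 197, 233 and 168 CPM with JQ1. The JQ1 libraries were far above the DMSO libraries of each line, and replicate 2 was the highest and replicate 3 the lowest of both JQ1 groups. The log2 fold change was 3.13 ± 0.26 in UM-SCC-47 and 2.92 ± 0.25 in UPCI-SCC-090 (adjusted p = 0.0037). H1-5 was near the limit of detection: 0.565, 0.481 and 0.388 CPM with DMSO and 0.654, 1.74 and 1.27 CPM with JQ1 in UPCI-SCC-090 (1.22 ± 0.43, adjusted p = 0.081; 1.80 with an adjusted p of 0.017 when the GC trend was removed), and at most 0.451 CPM in any UM-SCC-47 library. H1-4 was at 0.0727 to 0.790 CPM in all 12 libraries and could not be tested within either line.

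**Figure D3:**
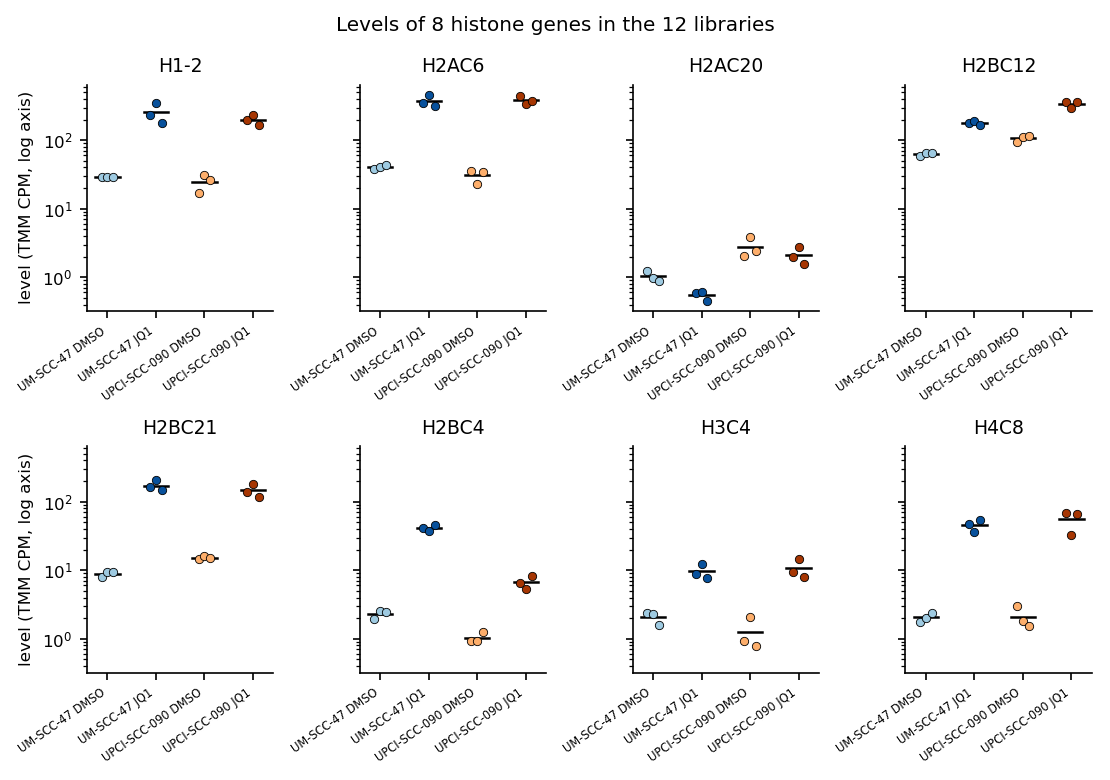
Level of 8 members in each of the 12 libraries, in TMM-scaled CPM on a log axis; points are libraries, coloured by group, and horizontal lines are group means. For 7 of the 8 genes the JQ1 libraries of each line lie above its DMSO libraries; H2AC20 is the exception, at 0.455 to 1.24 CPM in UM-SCC-47 and 1.57 to 3.85 CPM in UPCI-SCC-090.

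Too few counts for a test in either line were found for 9 members, H1-1, H1-3, H1-4, H1-6, H2AC1, H2AC21, H2BC1, H3C12 and H3C13, which had at most 21 counts in any library. H1-5, H2BC13 and H4C3 were also not tested in UM-SCC-47. H2AC1 and H2BC1, a head-to-head pair known from the testis, had no count in any of the 12 libraries, where 3 counts would have given about 0.1 CPM. H1-1 had no count in any JQ1 library. A difference in these members was not detectable at this depth.

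Levels of different genes can be set side by side only per length. Divided by the length in kb of the transcript with the stem-loop, H2BC12 was the highest annotated member of DMSO libraries, at 127 ± 8.24 CPM per kb in UM-SCC-47 and 216 ± 24.2 in UPCI-SCC-090. H2AC6 followed at 78.7 ± 5.44 in UM-SCC-47. After JQ1 the order was different: H2AC6 led at 724 ± 144 CPM per kb in UM-SCC-47, with H2BC12 at 361 ± 26.2 and H1-2 at 351 ± 121, which did not differ beyond their spread. In UPCI-SCC-090 JQ1 libraries H2AC6 was at 738.7 ± 104 CPM per kb and H2BC12 at 682 ± 77.2, again within their spread. Where longer transcripts of a gene are in use, this division overstates its level.

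Members were also split by their annotated transcripts. Those with any spliced transcript or one over 1000 bases, which can carry a poly(A) tail, numbered 13, and those with short single-exon transcripts only numbered 20. In UPCI-SCC-090, 9 of 11 tested members of the first kind rose, the median log2 fold change being 2.19, and 9 of 13 of the second kind, with a median of 2.59. In UM-SCC-47 the medians were 3.19 over 11 members and 2.21 over 10. The order of the medians was thus opposite in the lines. H4C8, H2BC21, H2BC4 and H2BC18 were of the first kind, and H2AC11, H2AC13 and H1-2 of the second.

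Reads of near-identical histone genes can be divided among copies. Over the 25 annotated members with at most 50% of their 31-base words in another gene, the summed level went from 122 ± 7.27 to 1178 ± 203 CPM in UM-SCC-47 and in UPCI-SCC-090 from 114 ± 4.12 to 1136 ± 66.7 CPM. These ratios, 9.65 and 9.93, were above those of the whole family.

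Neighbours that share a promoter stretch could have very different values. H2BC21 and H2AC20, whose starts lie on either side of the 235 bases printed above, differed by 5.16 in log2 fold change in UM-SCC-47 (4.26 against −0.90) and by 3.65 in UPCI-SCC-090 (3.15 against −0.50). H2AC13 rose by 4.04 in UPCI-SCC-090 while its partner H2BC13 was at −1.42, a difference of 5.46. H2BC13 was not called there and had 16 to 20 counts with DMSO and 4 to 10 with JQ1. Of the 31-base words, 45.4% of those of H2BC13 and 64.9% of those of H2AC13 are shared with other genes. H2AC11 exceeded H2BC11 by more than 2 log2 units in both lines (3.31 against 0.94 and 4.0 against 1.37). For H2BC4 and H2AC6 the order turned between the lines, with H2BC4 ahead by 0.96 in UM-SCC-47 and behind by 0.91 in UPCI-SCC-090, and H2AC25 was ahead of H2BC26 by 0.85 and 0.83. The differences are differences between genes of the same libraries and were given no test.

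**Figure D4:**
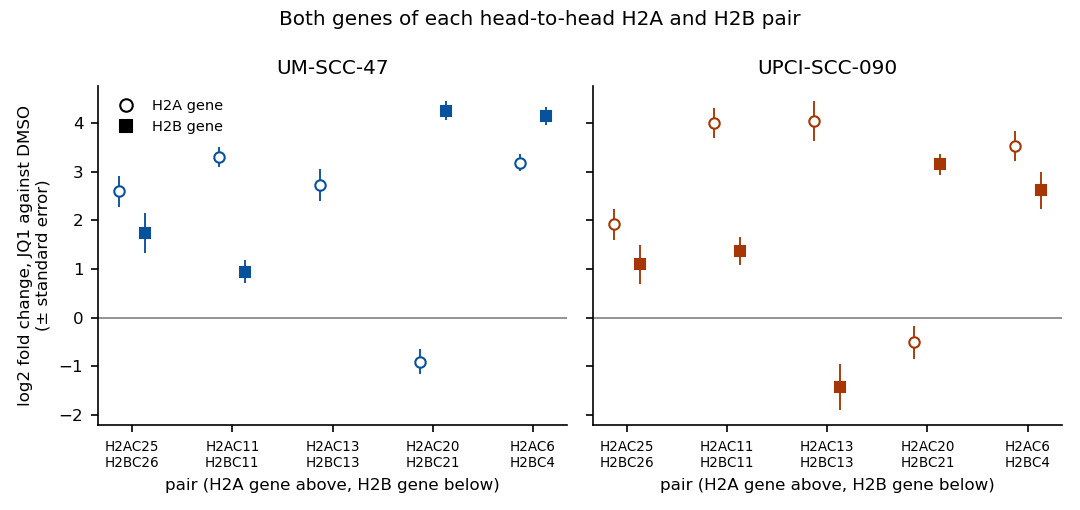
Log2 fold change with JQ1 of both genes of each tested head-to-head pair, with standard errors, in UM-SCC-47 and UPCI-SCC-090; circles are H2A genes and squares H2B genes, and H2BC13 was not tested in UM-SCC-47. H2BC21 with H2AC20 and H2AC13 with H2BC13 lie furthest apart, by 5.16 in UM-SCC-47 and 5.46 in UPCI-SCC-090. H2BC13 had few counts and was not called in UPCI-SCC-090.

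The lines already differed in some members without JQ1. Of 27 members tested, 8 were higher in UPCI-SCC-090 DMSO than in UM-SCC-47 DMSO libraries, where 23.3% of all 14396 genes were called higher, and 1 was lower, where 19.9% were called lower. The share called higher was thus near that of all genes, with the near-identical H3C14 and H3C15 counted separately. The median gene differed by 0.15 (0.03 with RLE scaling, −0.14 without UPCI-SCC-090 DMSO replicate 1). The 3 UM-SCC-47 DMSO libraries are also part of the contrast the family was selected on. Some H4 and H3 genes led: H4C11 was higher by 2.07 ± 0.33 (log2, edgeR adjusted p = 0.00033), ENSG00000183941 by 2.01 ± 0.28 (adjusted p = 0.00013), ENSG00000182217 by 1.80 ± 0.21 (adjusted p = 3.4e-05), and H3C15 and H3C14 by 1.85 ± 0.28 and 1.83 ± 0.28 (adjusted p = 0.00022 and 0.00025). The other tested H4 and H3 genes were not called, with H4C8 at 0.03 ± 0.35, H4C3 at 0.60 ± 0.43, H4C16 at −0.83 ± 0.40 and H3C4 at −0.72 ± 0.42. H2AC20 was higher by 1.41 ± 0.34 (adjusted p = 0.005), H2BC12 by 0.76 ± 0.17 (adjusted p = 0.003) and H2BC21 by 0.76 ± 0.21 (adjusted p = 0.012), and H2BC4 was lower by 1.16 on the log2 scale (SE 0.27, adjusted p = 0.0044). The call of H2BC12 was lost without UPCI-SCC-090 DMSO replicate 3 (0.52), and that of H2BC21 without UM-SCC-47 DMSO replicate 1 (0.68), without UPCI-SCC-090 DMSO replicate 3 (0.58), with RLE scaling (0.65) and with DESeq2 (0.65). Summed by class, UPCI-SCC-090 DMSO libraries held 3.31 times the H4, 1.90 times the H3 and 1.51 times the H2B level of UM-SCC-47, and 0.843 times the H1 and 0.884 times the H2A level. H1 libraries of the lines overlapped, at 29.8 to 31.1 CPM in UM-SCC-47 and 18.2 to 31.6 CPM in UPCI-SCC-090, as did H2A libraries, at 54.4 to 61.1 and 44.4 to 56.5 CPM.

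The size of the JQ1 change was compared between the lines in 1 fit over the 12 libraries, as a description, since it contains the contrast used for the choice. Of 27 members tested, H2BC4 alone was called, with a smaller rise in UPCI-SCC-090 (difference −1.47 ± 0.37), where 3.63% of all 14396 genes were called lower and 2.93% higher; the call held in 2 of the 12 fits that left out 1 library. H2BC18 and H2BC21 had differences of the same sign, −1.44 ± 0.47 and −0.99 ± 0.29, and H2AC13 of the opposite sign, 1.39 ± 0.47. The median difference over the 27 members was 0.25, against −0.03 over all genes. H1-5 had the largest difference, 4.02 ± 1.09, on at most 36 counts in any library.

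Most tested members of the family were called higher with JQ1, and none of the listed genes that make and process histone transcripts was. The list covers NPAT and its partners, SLBP, the U7 complex, the cleavage factors and decay factors, and 20 of its 21 genes were in the table; CASP8AP2 was not analysed here. By edgeR none of the 20 was called higher in either line, also at an unadjusted p under 0.05 or by DESeq2, and 5 fell in UM-SCC-47 and 6 in UPCI-SCC-090. DESeq2 called 4 and 2 lower. The median log2 fold change was −0.44 in UM-SCC-47 and −0.31 in UPCI-SCC-090, against −0.03 and −0.14 over all genes. Of all genes 25.5% and 20.4% were called lower, and 16.1% and 7.67% higher, so the share called lower in UM-SCC-47 was near that of all genes. LSM11, a protein of the U7 particle, fell in UPCI-SCC-090 from 13.9 ± 0.216 to 2.22 ± 0.844 CPM (−2.79 ± 0.36, adjusted p = 0.0043), and in UM-SCC-47 it was at 23.0 ± 1.32 and 5.16 ± 0.587 CPM (−2.17 ± 0.17). SYMPK, a scaffold of the cleavage complex, fell by 1.88 in UPCI-SCC-090 (adjusted p = 0.0085; −1.27 ± 0.16 in UM-SCC-47), and SRRT, the cap-complex partner ARS2, by 1.33 (adjusted p = 0.012; −1.10 ± 0.13 in UM-SCC-47). SLBP was at 64.9 ± 9.27 and 108 ± 23.5 CPM in UPCI-SCC-090 (0.65 ± 0.30, adjusted p = 0.16) and HINFP, an activator of H4 genes, at 28.5 ± 4.76 and 36.1 ± 10.5 CPM (0.21 ± 0.26, adjusted p = 0.61). The change of SLBP in UM-SCC-47 was 0.25 ± 0.13. In both lines its JQ1 libraries lay above its DMSO libraries, as for 22.8% of all genes in UM-SCC-47 and 16.1% in UPCI-SCC-090. NPAT varied too much between libraries to be read, from 2.15 to 28.6 CPM within UPCI-SCC-090 JQ1 (0.15 ± 1.21, adjusted p = 0.95).

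Replication-independent histones, which are made outside S phase from polyadenylated transcripts, went both ways. Of 10 such genes, 3 rose and 2 fell in UPCI-SCC-090, and 3 were called higher and 3 lower in UM-SCC-47, with medians of 0.14 and −0.24. Over all genes 7.67% were called higher and 20.4% lower in UPCI-SCC-090, and 16.1% and 25.5% in UM-SCC-47, so the shares called lower were near those of all genes. H3-3A and H3-3B, which both encode the replacement histone H3.3, rose in UPCI-SCC-090 by 2.00 ± 0.38 (984 ± 189 to 4149 ± 1407 CPM, adjusted p = 0.011) and 1.83 ± 0.17 (332 ± 17.3 to 1264 ± 65.9 CPM, adjusted p = 0.0037). In UM-SCC-47 their changes were 1.36 ± 0.14 and 0.76 ± 0.15. H2AJ, an H2A variant, rose by 1.63 ± 0.25 (adjusted p = 0.0056; 1.61 ± 0.23 in UM-SCC-47). The genes that fell in UPCI-SCC-090 were CENPA, the histone of centromeres (−2.56 ± 0.30, adjusted p = 0.004), and MACROH2A2 (−1.83 ± 0.24, adjusted p = 0.0043), with −3.40 ± 0.28 and −3.29 ± 0.18 in UM-SCC-47. H1-10 (−0.10 ± 0.30), H2AX (0.21 ± 0.31), H2AZ1 (0.45 ± 0.20), H2AZ2 (0.06 ± 0.17) and MACROH2A1 (−0.44 ± 0.20) did not pass in UPCI-SCC-090, with adjusted p from 0.15 to 0.86; in UM-SCC-47 their changes were −0.20 ± 0.19, 0.03 ± 0.24, −0.28 ± 0.19, −0.52 ± 0.13 and −0.38 ± 0.14.

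Histone chaperones and S-phase genes fell or did not pass the test. Of 18 chaperones, which carry histones to DNA, edgeR called none higher in either line, also at an unadjusted p under 0.05. By edgeR 7 fell in UPCI-SCC-090 and 12 in UM-SCC-47, with medians of −0.82 and −0.72 (all genes −0.14 and −0.03, of which 20.4% and 25.5% were called lower and 7.67% and 16.1% higher). DESeq2 called 5 lower in UPCI-SCC-090, and in UM-SCC-47 11 lower and 1, ATRX, higher. TONSL fell in UPCI-SCC-090 by 3.29 (adjusted p = 0.0041), HJURP, the chaperone of CENPA, by 2.84 (adjusted p = 0.0037) and CABIN1 by 2.73 (adjusted p = 0.0052). In UM-SCC-47 their changes were −2.43 ± 0.19, −3.91 ± 0.14 and −0.99 ± 0.20, and CHAF1A, a subunit of the replication-coupled chaperone CAF-1, was at −2.92 ± 0.21 (−2.65 ± 0.30 in UPCI-SCC-090, adjusted p = 0.0038). Of 18 S-phase genes, none was called higher in either line by edgeR, at an unadjusted p under 0.05 or by DESeq2, 12 fell in UPCI-SCC-090 (7 by DESeq2), and 15 were called lower in UM-SCC-47 by both tools, with medians of −1.17 and −1.82, beside the same shares and medians over all genes. RRM2, a subunit of ribonucleotide reductase, fell from 259.6 ± 8.21 to 63.6 ± 11 CPM in UPCI-SCC-090 (−2.13 ± 0.22, adjusted p = 0.0037), and E2F1, a driver of S-phase transcription, fell by 1.83 (adjusted p = 0.0083). PCNA, the sliding clamp of DNA polymerase, was at 280.3 ± 61.1 and 384 ± 157 CPM (0.39 ± 0.43, adjusted p = 0.57) and CCNE2 at 29.2 ± 19.0 and 15.4 ± 13.4 CPM (−0.96 ± 0.89, adjusted p = 0.49). In UM-SCC-47 these 4 were at −2.36 ± 0.16, −1.71 ± 0.18, −0.05 ± 0.14 and −0.59 ± 0.65. The lower share of S-phase transcripts stood beside a higher share of histone transcripts in the same libraries, and the part of one in the other was not tested.

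**Figure D5:**
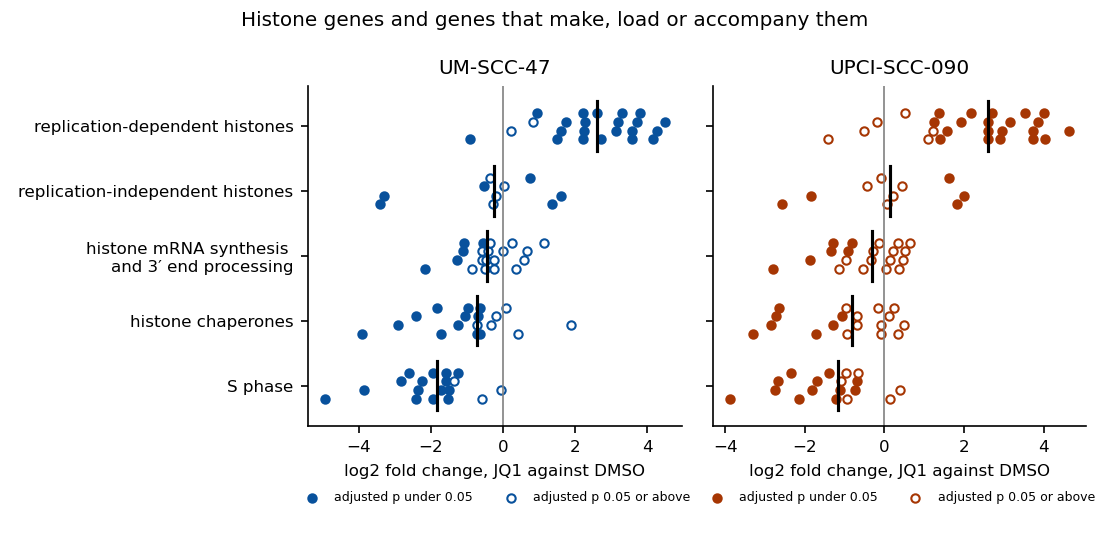
Log2 fold change with JQ1 of the tested histone members and of the genes of the 4 related lists, 1 point per gene, in UM-SCC-47 and UPCI-SCC-090; filled points had an adjusted p under 0.05 and vertical black lines are medians. The members have medians of 2.60 and 2.59, the S-phase list −1.82 and −1.17, and the chaperone list −0.72 and −0.82.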

How the data were processed

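Removal of ribosomal RNA and a stranded kit are given in the study's methods, in the passage on its patient cohort. Per the labels (the submitters' processing notes), the authors quantified genes with Salmon 0.8.2 and deposited 1 table of estimated counts per gene and library, without scaling between libraries. Their index and genome build were not given in the sources used here. No source says whether replicates were separate cultures, so p-values measure only the spread between these libraries, which may be technical.

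The estimated counts were rounded and tested in R 4.3.3 with edgeR 4.0.16 (quasi-likelihood F test, TMM, filterByExpr with a minimum count of 10 and total of 15, Benjamini-Hochberg over all genes tested, threshold 0.05), per line for JQ1 against DMSO, and over all 12 libraries for the difference between lines. SE was derived from the fold change and its F value (absolute log2 value over root F). The scripts' fits were tested on simulated data. Alternatives were RLE scaling, library size alone, DESeq2 1.42.0, no filter, a GC correction, leaving out libraries, 1 fit over 12 libraries and a replicate block. Positions are from GENCODE 44 on GRCh37, and 20015 of the 20738 identifiers matched it. The table has no rows that name no gene. Amino acid sequences were not used here.

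The members and lists were chosen with earlier results of these data known. Named members were the 3 with the highest mean CPM in each class, up to 6 called in each direction and line with at least 1 CPM and no overlap between groups, H4C8, H2BC21 and H2BC4, and head-to-head partners; H2AC7, H2BC15, H4C3, H4C11 and H4C16 were added after their values were seen, as were the counts without near-identical copies. In the related lists, NPAT, SLBP, HINFP, LSM11, PCNA, CCNE2, RRM2, E2F1 and the replication-independent histones were always named, with up to 3 called genes per line and direction. A gene of a related list is not reported here and was left out of the counts of its list.

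Replicates of a group differed by 8.68 to 449 in chi-square per gene, so no library appeared more than once. Deviations from the group means of libraries with the same replicate number correlated at −0.215, 0.215 and 0.509 in UM-SCC-47 and at 0.102, 0.823 and 0.244 in UPCI-SCC-090. These values were uneven, so whether the numbers pair libraries is not known. The main fits of both lines used no pairing, and the replicate block was run as an alternative.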

Additional observations from a re-analysis of the deposited data

Results flagged for a closer look

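H2BC4 was the 1 member whose JQ1 change differed between the lines past the threshold in the 12-library fit. Its log2 fold change was 4.15 in UM-SCC-47 and 2.62 in UPCI-SCC-090, and the difference was −1.47 ± 0.37 (edgeR adjusted p = 0.039). All 3 JQ1 libraries were above all 3 DMSO libraries in both lines, so the difference is one of size. The family was selected on the UM-SCC-47 contrast, which enters this difference. The call held in 5 of 8 alternatives and in 2 of the 12 fits without 1 library, those without UPCI-SCC-090 JQ1 replicate 2 or 3; over those 12 fits the difference ran from −1.64 to −1.33 with adjusted p up to 0.13. It was lost without each of the other 10 libraries, at −1.35, −1.54 and −1.52 without UM-SCC-47 DMSO replicates 1, 2 and 3, −1.47, −1.53 and −1.54 without UM-SCC-47 JQ1 replicates 1, 2 and 3, −1.59, −1.55 and −1.39 without UPCI-SCC-090 DMSO replicates 1, 2 and 3, and −1.46 without UPCI-SCC-090 JQ1 replicate 1.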

How the results depend on the processing

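The number of members called ranged over the fits that left out 1 library from 18 to 21 in UM-SCC-47, from 15 to 20 in UPCI-SCC-090, from 0 to 4 for the difference between lines and from 8 to 13 for the lines in DMSO. For the difference between lines it was 1 and became 0 with RLE scaling, with no filter and without the libraries of the steepest GC trends, 3 with library size alone, 3 with the GC correction and 2 with the replicate block and GC correction together. Library size alone lowered the log2 ratios of the class sums, in UM-SCC-47 to 2.82 (H2A), 2.31 (H2B), 1.93 (H3), 3.36 (H4) and 2.66 (all) and in UPCI-SCC-090 to 3.18, 1.86, 2.41, 3.48 and 2.71. H2AC20 in UPCI-SCC-090 changed sign, to 0.17 with the GC correction, 0.15 without the steepest libraries and 0.17 with both block and correction; the cause was not tested. With the replicate block alone, 20 members were called in UM-SCC-47, where H2AC20 lost its call (−0.90, adjusted p = 0.063), 20 in UPCI-SCC-090 and 1 for the difference between lines, and no other call changed. Over all alternatives and leave-outs, the values of named members kept direction and call in 600 cases, lost the call in 24, gained it in 5 and changed sign in 3. Depth limited the 9 members that could be tested in neither line.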
